A study of Mus musculus with 24 samples.

Results

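Chemokines are small secreted proteins that bind receptors on white blood cells and direct their movement into tissue. The CXC and CX3C families are named for the spacing of the cysteines near the amino end, and in the liver they are known as signals that draw neutrophils, T cells, B cells and monocytes. Transcripts of 9 ligand genes of these families were followed in mouse liver: Cxcl1, Cxcl2, Cxcl9, Cxcl10, Cxcl12, Cxcl13, Cxcl14, Cxcl16 and Cx3cl1. They were chosen by symbol from the 78298 gene IDs of the deposited count table. All 9 passed the filter on low counts, which left 17456 genes to test. Liver RNA came from 6 normal control mice and from 18 mice modelling steatohepatitis, a disease of fat storage with inflammation. The labels describe the model mice as a single group and give no strain, sex, age, diet or duration for either group, so what defines the model beyond its name is not given in the sources used here. They number the libraries without saying that each is a separate animal. Each is called a mouse here, and p-values measure the spread between these libraries.

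Library totals lay between 31.6 and 58.4 M counts. A level of 3 counts stood for between 0.0488 and 0.106 CPM (counts per 1 M, scaled by TMM factors, which correct library totals for differences in composition). The defining hepatocyte markers were abundant in every library, with a summed level of 5 genes from 111175 to 174440 CPM in controls and from 52056 to 110547 CPM in model mice. Over the 18 model mice, the leading component of the 2000 most variable genes took 43.3% of their variance. Its widest gap, 23.3% of the range, set model mouse 10 apart. The next widest, 12.6%, left 9 mice on either side. Whether the model mice form a gradient or separate clusters was not tested. Mouse 10 had the lowest summed level among model mice of the macrophage, neutrophil, T and NK cell and stellate cell markers and the highest of the hepatocyte markers. It also had the lowest level of 7 of the 9 ligands, and values without it are given where it matters.

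Of the 9 ligands, 7 were higher and 1 was lower in model livers, and Cxcl13 did not pass the test (quasi-likelihood test of edgeR, with a threshold of 0.05 on p-values adjusted by Benjamini-Hochberg over all genes). Calls were frequent in the whole table: 60.0% of genes tested passed, 31.2% as higher and 28.8% as lower. The median log2 fold change was 2.26 over the ligands and 0.01 over all genes tested. For 5 ligands (Cxcl1, Cxcl2, Cxcl10, Cxcl16 and Cx3cl1) every model mouse lay above every control, which held for 9.66% of genes tested. For Cxcl12 every model mouse lay below every control, which held for 6.03%. Scaling moved the balance of all calls: TMM factors put 52.0% of them on the higher side, against 85.8% for library totals alone and 62.8% for upper-quartile factors. The directions of the 8 called ligands were the same under each of these. Clock genes also differed, among them Arntl (log2 fold change -2.53) and Dbp (2.68), and the 8 calls held with an index of 6 clock genes as a covariate. All 18 model mice lay above every control for Nr1d1 and Dbp. Below every control lay 13 for Arntl and 8 for Clock, while Npas2 and Per3 overlapped. The index thus followed the group in large part, and this fit cannot separate a clock difference from the model. These are bulk samples, in which a change in the number of cells of a type and a change in RNA per cell cannot be told apart.

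**Figure D1:**
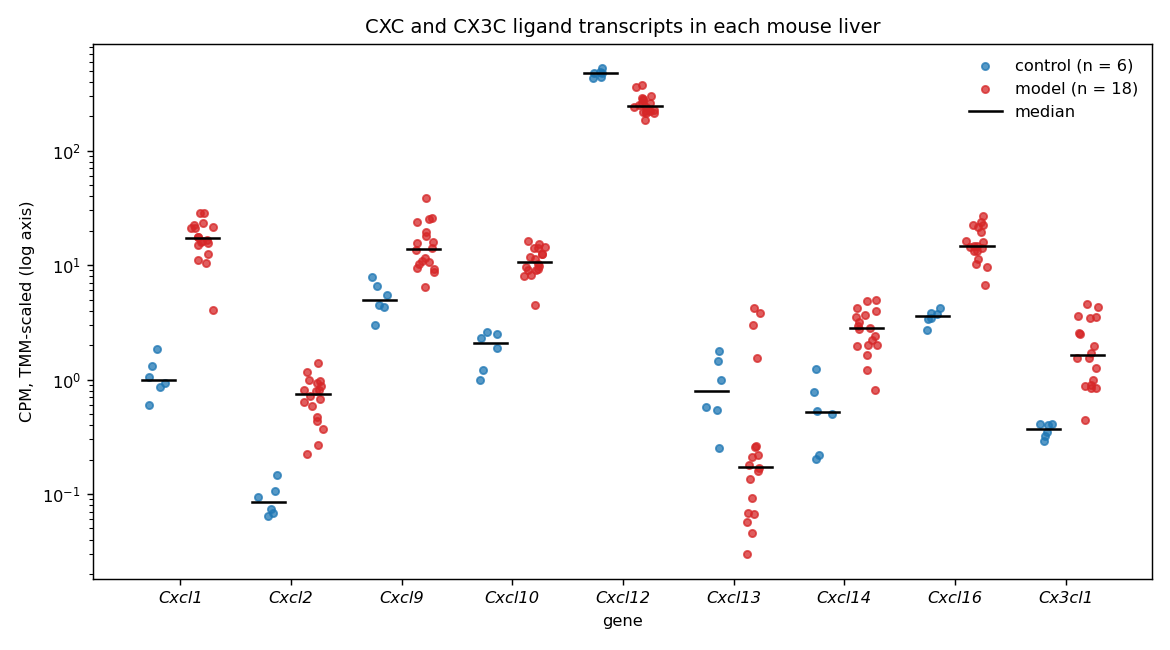
Level of each ligand in each mouse liver, in CPM on a log axis, with controls in blue (n = 6), model mice in red (n = 18) and a black line at the group median. Model mice lie above all controls for Cxcl1, Cxcl2, Cxcl10, Cxcl16 and Cx3cl1 and below them for Cxcl12, while Cxcl13 forms a low band of 14 model mice and 4 mice above it.

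Cxcl1 and Cxcl2 are neighbouring genes on chromosome 5 that encode ligands of CXCR2, the receptor through which neutrophils are drawn to sites of injury. In the build of the count table, GRCm39, Cxcl1 lies at 91039100 to 91040974 and Cxcl2 at 91051730 to 91053797, both on the forward strand. Their promoters are shown because they hold the same 11-base run at a similar distance from the start of transcription. RefSeq promoter sequences were available for 8 of the 9 ligands, in the earlier build GRCm38.p6, and the 250 bases before each start were searched on both strands for 3 motifs. In the lines below capitals mark matches to the kappaB consensus, the sequence bound by NF-kappaB, the transcription factor that relays tumour necrosis factor, interleukin 1 and Toll-like receptor signals. The Cxcl1 stretch is chr5:90891164-90891194 and the Cxcl2 stretch chr5:90903792-90903822, both on the forward strand.
Cxcl1: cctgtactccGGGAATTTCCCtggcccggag
Cxcl2: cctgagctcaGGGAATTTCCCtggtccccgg
The run reads as a match on both strands, overlapping itself, and lies 71 to 61 bases before the Cxcl1 start and 97 to 87 bases before the Cxcl2 start. A kappaB match was present in 3.9% of all 32851 promoter windows of this length. A match is a description of the letters and not evidence of binding.

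Cxcl1 had the largest fold change of the 9 ligands. Control levels ran from 0.597 to 1.86 CPM with a median of 0.995, and model levels from 4.05 to 28.7 CPM with a median of 17.1. The lowest model value, that of mouse 10, was still above the highest control. The mean rose from 1.10 ± 0.439 CPM (SD, n = 6) to 17.7 ± 6.20 CPM (SD, n = 18), a change of 4.00 on the log2 scale (SE 0.34, adjusted p = 6.18e-10), or 16.0-fold.

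Cxcl2 rose from a much lower level. It had 2 to 5 counts in each control, 18 in all, and 8 to 50 counts in each model mouse, 554 in all. In CPM the controls lay between 0.0643 and 0.147 with a median of 0.0844, near the level that 3 counts stand for, and the model mice between 0.222 and 1.39 with a median of 0.753. The groups did not overlap, and the log2 fold change was 2.93 (SE 0.39, adjusted p = 3.75e-07). The gene for their receptor, Cxcr2, rose from 10 control counts to 257 model counts (log2 fold change 2.64, SE 0.51, adjusted p = 7.35e-05). Cxcr1, a related receptor gene, had 14 and 155 counts and did not pass the filter. Neutrophil markers moved with these ligands: 4 of 6 were higher (S100a8, S100a9, Csf3r and Cxcr2), Retnlg did not pass (log2 fold change 0.88, adjusted p = 0.0932) and Ly6g, with 1 control and 9 model counts, was not tested. Their summed level was 0.597 to 5.96 CPM in controls and 3.89 to 15.5 CPM in model mice, and its part in the ligand levels was not tested.

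Cxcl9 and Cxcl10 encode ligands of CXCR3, a receptor of activated T cells and NK cells, and are induced by interferon gamma. They are neighbours on the reverse strand of chromosome 5 (GRCm39), Cxcl9 at 92469206 to 92475938 and Cxcl10 at 92494497 to 92496748. The Cxcl10 promoter is shown because it holds matches to 2 of the 3 motifs: an ISRE core (TTTC, 2 bases of any kind and TTTC again, the element read by interferon-regulated factors) and, closer to the start, a pair of kappaB matches. The stretch is chr5:92348973-92349112 of GRCm38.p6, on the reverse strand and written 5′ to 3′, and capitals mark the matches in that order.
Cxcl10: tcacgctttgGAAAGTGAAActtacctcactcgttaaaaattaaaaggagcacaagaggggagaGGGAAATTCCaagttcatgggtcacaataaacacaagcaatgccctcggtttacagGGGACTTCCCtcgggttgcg
The ISRE core lies 213 to 204 bases before the start, on the opposite strand, and the kappaB matches 159 to 150 and 103 to 94 bases before it. An ISRE core was present in 2.98% of all windows. The motif called GAS core (TTCNNNGAA), an element of interferon gamma responses, was present in 7.02% of windows. Cxcl14 held both a GAS core and an ISRE core, and none of the 3 motifs was found in the windows of Cxcl9, Cxcl12, Cxcl13 and Cx3cl1.

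Cxcl9 was the higher of the pair in controls and changed less. Control levels ran from 2.97 to 7.85 CPM with a median of 4.97, and model levels from 6.41 to 38.8 CPM with a median of 13.9. Mouse 10 alone of the model mice fell within the control range, and mouse 16 was the highest. The mean went from 5.26 ± 1.74 CPM (SD, n = 6) to 16.0 ± 8.15 CPM (SD, n = 18), a change of 1.60 on the log2 scale (SE 0.32, adjusted p = 0.000165).

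Cxcl10 controls lay between 0.997 and 2.59 CPM with a median of 2.10, and model mice between 4.50 and 16.3 CPM with a median of 10.7. The groups did not overlap, and the model mice varied less than for Cxcl9. The log2 fold change was 2.52 (SE 0.23, adjusted p = 1.94e-09), or 5.76-fold. Cxcl10 shares 133 exon bases with Art3 on the opposite strand. Art3 had 127 control and 938 model counts, and without a known strand setting reads in the shared bases cannot be assigned. Cxcl11, a further CXCR3 ligand that is not among the 9, rose in all 18 model mice above every control (log2 fold change 1.82, SE 0.16, adjusted p = 1.07e-09). Cxcr3 rose from 0.260 ± 0.152 CPM (SD, n = 6) to 0.698 ± 0.247 CPM (SD, n = 18), with 14 of 18 model mice above every control. Of 7 T and NK cell markers all 7 were higher, with a summed level of 1.52 to 3.12 CPM in controls and 1.81 to 10.8 CPM in model mice. Their part in the Cxcl9 and Cxcl10 levels was not tested. Ifng itself had 4 control and 29 model counts and did not pass the filter.

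Cxcl12, which binds CXCR4 and retains blood-forming and immune cells in tissue, was the most abundant of the 9 and the one that fell. The gene lies on chromosome 6 at 117145496 to 117158328 (GRCm39, forward strand). Control levels ran from 428 to 524 CPM with a median of 474, and model levels from 186 to 377 CPM with a median of 245. All 18 model mice were below the lowest control, with mice 12 and 14 nearest to it and mouse 13 the lowest. The mean went from 469.9 ± 34.4 CPM (SD, n = 6) to 257 ± 50.5 CPM (SD, n = 18), and the log2 fold change was -0.87 (SE 0.11, adjusted p = 1.09e-07), or 1.83-fold lower. With library totals alone the value was -0.55 (adjusted p = 5.57e-06), against a shift of 0.34 in the median of all genes. Hepatocyte markers moved the same way: all 5 were lower, among them Alb at -0.88 and Hnf4a at -0.93, and their part in the Cxcl12 level was not tested. The markers of sinusoidal endothelium did not fall (4 of 5 were higher, and Kdr did not pass). The CXCR4 gene Cxcr4 rose from 0.303 ± 0.103 CPM (SD, n = 6) to 2.81 ± 1.41 CPM (SD, n = 18), a change of 3.20 on the log2 scale (SE 0.39, adjusted p = 1.14e-07). Ackr3, a receptor that takes up CXCL12 and clears it, rose by 1.20 on the log2 scale (SE 0.33, adjusted p = 0.00268).

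Cxcl14, a ligand made by epithelial and stromal cells, lies on the reverse strand of chromosome 13 at 56436456 to 56444364 (GRCm39). Controls had 6 to 50 counts each and levels from 0.203 to 1.24 CPM with a median of 0.516. Model mice lay between 0.805 and 4.95 CPM with a median of 2.79, and 16 of 18 were above every control. The exceptions were mice 9 and 10. The log2 fold change was 2.26 (SE 0.37, adjusted p = 9.89e-06), or 4.80-fold, and on the log2 scale it was 3.16 with the clock index as a covariate (adjusted p = 0.00176). Cxcl14 and Cxcl12 thus went opposite ways in the same livers. Stellate cell markers were higher for 6 of 6 genes, with summed levels of 26.4 to 50.8 CPM in controls and 54.7 to 131 CPM in model mice, and their part in the Cxcl14 level was not tested.

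Cxcl13, the ligand that gathers B cells through CXCR5 in lymphoid follicles, separated the model mice more than any other of the 9. The gene lies on chromosome 5 at 96104810 to 96108927 (GRCm39, forward strand). Controls had 8 to 72 counts and levels from 0.252 to 1.79 CPM, with a median of 0.786. In 14 model mice the gene had 1 to 11 counts and between 0.0296 and 0.263 CPM, with a median of 0.147. The other 4 model mice were far above this band: mouse 4 had 91 counts and 1.53 CPM, mouse 10 had 108 counts and 3.00 CPM, mouse 11 had 140 counts and 3.82 CPM, and mouse 15 had 193 counts and 4.24 CPM. The gap between the bands was 5.83-fold, and the controls lay across and between them. Of the model mice, 12 were below every control and 3 above every control.

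The group means of Cxcl13, 0.936 ± 0.591 CPM (SD, n = 6) in controls and 0.808 ± 1.38 CPM (SD, n = 18) in model mice, therefore described few of the mice. The log2 fold change was -0.23 (SE 0.87, adjusted p = 0.833), and its sign depended on single settings. It was 0.11 with library totals alone, 1.85 with an index of clock genes as a covariate (adjusted p = 0.357) and -1.63 with limma-voom (adjusted p = 0.0547). Leaving out single libraries gave -0.66 to 0.0795, the first without model mouse 15 and the last without control 2. The 4 mice with high Cxcl13 did not share a pattern in the other ligands. Mouse 10 had the lowest level of 7 of them, mouse 15 had the highest Cxcl16, mouse 4 had the highest Cx3cl1, and mouse 11 ranked between 7 and 15 of 18 for all 8. The gene for the CXCL13 receptor, Cxcr5, rose from 24 control counts to 286 model counts (log2 fold change 1.55, SE 0.28, adjusted p = 3.33e-05). All 5 B cell markers were higher, with summed levels of 3.14 to 6.00 CPM in controls and 11.0 to 55.8 CPM in model mice.

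Cxcl16 and Cx3cl1 encode the chemokines of this group that are made as membrane-anchored proteins and released when proteases such as ADAM10 and ADAM17 cut them. CXCL16 binds CXCR6 on T cells and NKT cells and also takes up oxidised lipoprotein, and CX3CL1, or fractalkine, binds CX3CR1 on monocytes and macrophages. Cxcl16 lies on the reverse strand of chromosome 11 at 70344809 to 70350810, and Cx3cl1 on the forward strand of chromosome 8 at 95498637 to 95509055 (both GRCm39).

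Cxcl16 controls lay between 2.73 and 4.24 CPM with a median of 3.58, and model mice between 6.69 and 26.8 CPM with a median of 14.7. Every model mouse was above every control, with mouse 10 the lowest and mouse 15 the highest. The log2 fold change was 2.18 (SE 0.24, adjusted p = 2.79e-08), or 4.54-fold. Cxcl16 shares 552 exon bases with Zmynd15 on the opposite strand. Zmynd15 had 219 control and 3109 model counts against 701 and 12794 for Cxcl16, and how reads in the shared bases were assigned is not given in the sources used here. Its receptor gene Cxcr6 rose less, by 1.14 on the log2 scale (SE 0.29, adjusted p = 0.00152), and 12 of 18 model mice were above every control. Macrophage markers, 6 of 6 higher, had summed levels of 17.7 to 41.8 CPM in controls and 105 to 519 CPM in model mice. Their part in the Cxcl16 level was not tested.

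Cx3cl1 was scarce and even in controls, with 9 to 16 counts and 0.289 to 0.411 CPM (median 0.372), and uneven in model mice, with 16 to 273 counts and 0.444 to 4.60 CPM (median 1.63). The groups did not overlap, although mouse 10 lay just above the highest control. The mean went from 0.361 ± 0.0507 CPM (SD, n = 6) to 2.07 ± 1.30 CPM (SD, n = 18), a change of 2.51 on the log2 scale (SE 0.47, adjusted p = 5.50e-05). Its receptor gene Cx3cr1 rose more, from 0.312 ± 0.136 CPM (SD, n = 6) to 6.04 ± 3.01 CPM (SD, n = 18), with a change of 4.26 on the log2 scale (SE 0.48, adjusted p = 5.34e-08). Of the genes for the releasing proteases, Adam10 rose by 0.32 on the log2 scale (SE 0.08, adjusted p = 0.000884), and Adam17 did not pass (0.06, adjusted p = 0.509). Cholangiocyte markers, of a cell type in which fractalkine is also made, were higher for 1 of 5 genes (Cftr), with summed levels of 7.35 to 12.6 CPM in controls and 3.72 to 30.5 CPM in model mice.

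Whether the 2 ligands of a pair changed by unlike amounts was tested on 4 log2 ratios taken within each mouse. The test was a 2-sided exact permutation test over all divisions of the mice, adjusted over the 4. The Cxcl1 to Cxcl2 ratio was 2.97 ± 0.70 (SD, n = 6) in controls and 4.53 ± 0.54 (SD, n = 18) in model mice, a difference of 1.56 (exact permutation p = 4.46e-05, adjusted 8.92e-05). The prior count added to each value affects the low Cxcl2 counts of controls, and the difference was 1.24 with a smaller prior count of 0.5. The Cxcl9 to Cxcl10 ratio was 1.45 ± 0.41 (SD, n = 6) in controls and 0.43 ± 0.47 (SD, n = 18) in model mice, a difference of -1.02 (exact permutation p = 0.000119, adjusted 0.000158), with 15 of 18 model mice below every control. Cxcl10 thus rose more than Cxcl9, and Cxcl1 more than Cxcl2. The Cxcl12 to Cxcl14 ratio fell by 3.19 on the log2 scale, with all 18 model mice below every control. The exact permutation p was 7.43e-06, the lowest possible with these group sizes, and the adjusted p 2.97e-05. Cxcl12 and Cxcl14 were already called in opposite directions in these libraries, so this outcome was fixed in advance and adds no support. The Cxcl16 to Cx3cl1 ratio had the same mean in both groups, 3.13 in each (exact permutation p = 0.983), with an SD of 0.16 in controls and 0.57 in model mice. This does not show that the 2 genes change alike, since 6 model mice lay above and 8 below the range of the controls.

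**Figure D2:**
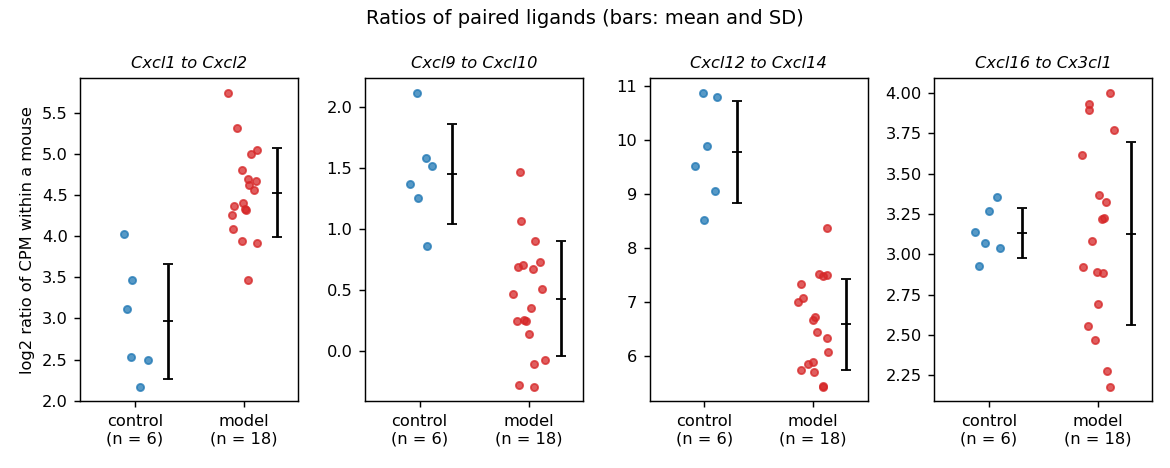
Log2 ratio of the CPM of paired ligands within each mouse, controls in blue (n = 6) and model mice in red (n = 18), with bars for the mean and SD. The Cxcl1 to Cxcl2 ratio is higher and the Cxcl9 to Cxcl10 and Cxcl12 to Cxcl14 ratios are lower in model mice, while the Cxcl16 to Cx3cl1 ratio has the same mean of 3.13 and a wider spread.

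Levels of different genes were compared per kilobase of summed exon length. In controls Cxcl12 stood at 57.5 ± 4.21 CPM per kilobase (SD, n = 6), followed by Cxcl9 at 1.75 ± 0.578 and Cxcl16 at 1.18 ± 0.168 CPM per kilobase. Cxcl2 was last at 0.0446 ± 0.0151 CPM per kilobase, below Cx3cl1 at 0.0920 ± 0.0129. In controls, the mean ± SD ranges of every pair of neighbours from Cxcl9 down to Cx3cl1 overlapped, through Cxcl16, Cxcl10, Cxcl13, Cxcl1 and Cxcl14, so their order within that stretch is not firm. In model mice Cxcl12 was still first, at 31.5 ± 6.18 CPM per kilobase (SD, n = 18), and Cxcl1 moved from rank 6 to rank 2 at 9.47 ± 3.31 CPM per kilobase. Cxcl16 (5.35 ± 1.81), Cxcl9 (5.30 ± 2.70) and Cxcl10 (4.93 ± 1.34 CPM per kilobase) followed and overlapped with Cxcl1 and each other as neighbours. Cxcl14, Cxcl13, Cx3cl1 and Cxcl2 came after a step down, and Cxcl2 stayed last at 0.353 ± 0.149 CPM per kilobase.

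Within the model group the ligands other than Cxcl12 varied more than most genes. The SD of log2 CPM over the 18 mice had a median of 0.26 over all genes tested. It was 1.88 for Cxcl13, above that of 99.9% of genes, 0.95 for Cx3cl1, 0.68 for Cxcl14, 0.67 for Cxcl9 and 0.65 for both Cxcl1 and Cxcl2. Cxcl16 (0.52) and Cxcl10 (0.44) varied less, and Cxcl12 (0.27) was near the median of all genes. Over the controls the median SD was 0.28. Above it were Cxcl13 (0.97), Cxcl14 (0.91), Cxcl10 (0.56), Cxcl1 (0.53), Cxcl9 (0.49) and Cxcl2 (0.30). Cxcl16 (0.21), Cx3cl1 (0.18) and Cxcl12 (0.11) were below it. Cxcl14 and Cxcl10 thus had a larger SD in controls than in model mice, a difference that was not tested. Their ratio of the highest to the lowest mouse was not larger in controls. It was 6.12 in controls and 6.15 in model mice for Cxcl14, and 2.60 and 3.62 for Cxcl10. Neither median is matched for expression level. Counts were as low as 1 for Cxcl13 and 8 for Cxcl2 in single model mice. As a ratio of the highest to the lowest mouse, the spread was 143-fold for Cxcl13, 10.4-fold for Cx3cl1 and 2.02-fold for Cxcl12. Some ligands ordered the 18 model mice nearly alike and others did not, as Spearman rho over these mice describes (36 pairs, median 0.11, no test). Cxcl14, Cxcl16 and Cx3cl1 ran together, with rho of 0.92 for Cxcl14 with Cxcl16, 0.84 for Cxcl16 with Cx3cl1 and 0.83 for Cxcl14 with Cx3cl1. Cxcl12 ran opposite to them, with rho of -0.90 with Cx3cl1, -0.76 with Cxcl16 and -0.72 with Cxcl14. Cxcl9 had rho between -0.10 and 0.11 with Cxcl14, Cxcl16 and Cx3cl1. Mice 4, 16, 13, 15 and 2 were the highest for Cx3cl1, mice 16, 1, 8 and 6 for Cxcl9, and mouse 8 for both Cxcl1 and Cxcl2.

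**Figure D3:**
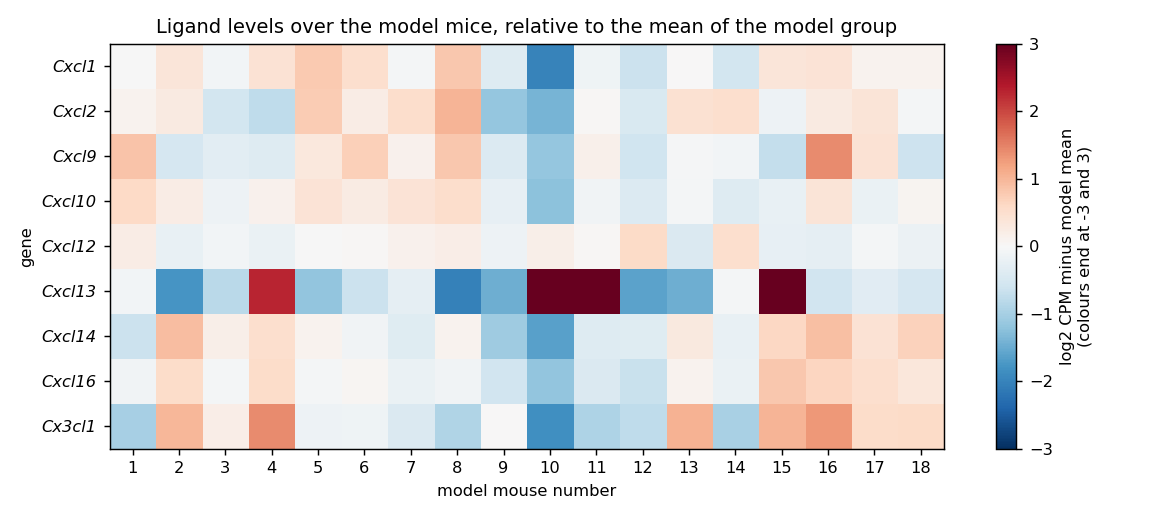
Log2 CPM of each ligand (rows) in each of the 18 model mice (columns) minus the mean of the model group for that gene. Red cells are above and blue cells below that mean, and colours end at -3 and 3, beyond which mice 10, 11 and 15 lie for Cxcl13. Mouse 10 is the lowest for 7 ligands, and Cxcl13 is high in mice 4, 10, 11 and 15.

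Relations over the model mice were computed for 8 pairs (log2 CPM, 2-sided permutation tests with 100000 resamples, adjusted over the 8). Because the leading component orders many genes at once, each relation was repeated within the 9 mice on either side of its gap. Cx3cl1 and its receptor gene Cx3cr1 had the closest relation, with Pearson r = 0.86 (permutation p = 1e-05, the smallest 100000 resamples can give, adjusted 8e-05) and Spearman rho = 0.85 (permutation p = 2e-05, adjusted 0.00016). It was 0.86 without the 2 farthest mice and 0.69 and 0.85 on the 2 sides, and 2.4% of genes had a higher rho with Cx3cl1. Cxcl1 with Csf3r, the G-CSF receptor gene of neutrophils, had r = 0.79 (permutation p = 0.00017, adjusted 0.00068) and rho = 0.74 (permutation p = 0.00069, adjusted 0.00272). It was 0.69 without the 2 farthest mice and 0.93 and 0.86 on the 2 sides, and 0.699% of genes had a higher rho with Cxcl1.

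Cxcl9 with Cxcl10 had r = 0.71 (permutation p = 0.00088, adjusted 0.00235) and rho = 0.69 (permutation p = 0.00189, adjusted 0.00378), with 0.62 without the 2 farthest mice and 0.47 and 0.92 on the 2 sides. Just 0.201% of genes had a higher rho with Cxcl9. Cxcl16 with the macrophage gene Adgre1 had r = 0.59 (permutation p = 0.00957, adjusted 0.0153) and rho = 0.50 (permutation p = 0.0372, adjusted 0.0425), with 0.50 without the 2 farthest mice and 0.77 and 0.50 on the sides. A higher rho with Cxcl16 was found for 16.9% of genes.

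Of the other relations, Cxcl1 with Cxcl2 had r = 0.65 (permutation p = 0.00334, adjusted 0.00668) but rho = 0.46 (permutation p = 0.0579, adjusted 0.0579). Without mice 8 and 10, r fell to 0.32. On the 2 sides of the component r was 0.44 and 0.89, and 9.92% of genes had a higher rho with Cxcl1. Cxcl9 with the T cell gene Cd3e had r = 0.58 (permutation p = 0.0126, adjusted 0.0169) and rho = 0.58 (permutation p = 0.0128, adjusted 0.0205). Without mice 10 and 16 r was 0.39. Leaving out the farthest mice also narrows the range. How far this relation, or that of Cxcl1 with Cxcl2, rests on them is therefore not settled. On the 2 sides r was 0.53 and 0.62, and 0.441% of genes had a higher rho with Cxcl9. Cxcl12 with Cxcl14 had r = -0.53 (permutation p = 0.0233, adjusted 0.0267) and rho = -0.72 (permutation p = 0.00102, adjusted 0.00272), with r = -0.62 without mice 12 and 14. On the 2 sides of the component r was -0.22 and -0.08, and 93.7% of genes had a higher rho with Cxcl12. Each side holds 9 mice and a narrower range of both genes. The values of the sides thus cannot show whether the relation of Cxcl12 with Cxcl14 holds within them. For Cxcl13, whose model mice fell into separate bands, no relation was tested over all 18. The rho values given for it without a test pool both bands. Within the 14 mice of the low band, chosen by the level of Cxcl13 itself after its values were seen and holding 1 to 11 counts each, r with the B cell gene Cd79a was 0.58 and rho 0.62, given as a description that supports nothing.

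**Figure D4:**
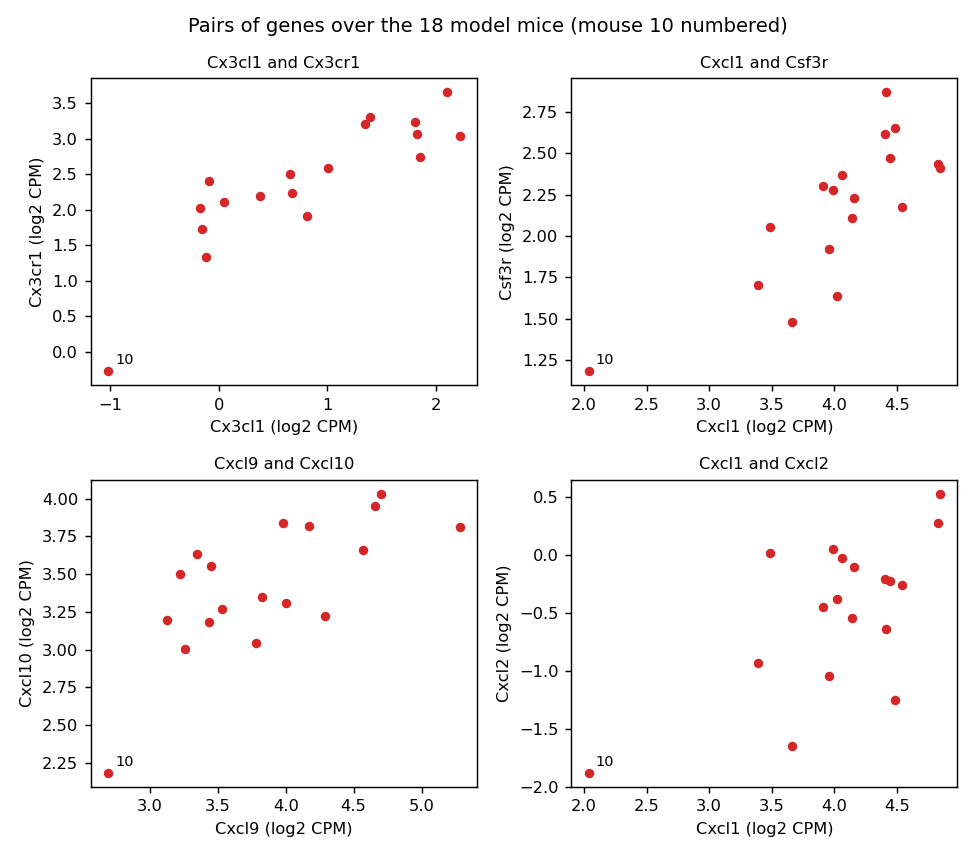
Log2 CPM of 4 pairs of genes over the 18 model mice, 1 point per mouse, with mouse 10 numbered. Cx3cl1 with Cx3cr1 (r = 0.86), Cxcl1 with Csf3r (r = 0.79) and Cxcl9 with Cxcl10 (r = 0.71) rise together, and for Cxcl1 with Cxcl2 (r = 0.65) mouse 10 lies at the low end of both genes.

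Other genes of the pathway were read from lists of background knowledge, chosen with earlier results of these data known. Of 8 further CXC and XC ligands, 5 were tested and 4 were higher. Cxcl5, a CXCR2 ligand, had no count in any control and 259 over the model mice, at least 21.6-fold higher against 3 counts over the whole control group. Pf4, a platelet and macrophage chemokine, rose by 2.22 on the log2 scale (SE 0.40, adjusted p = 3.58e-05). The platelet gene Ppbp did not pass (-0.08, adjusted p = 0.84). Cxcl3 had 0 and 17 counts and Cxcl17 1 and 14, Cxcl15 had none in any library, and these 3 were not tested. Of the 9 receptor and scavenger genes, 8 were tested and all 8 were higher (median 1.71 on the log2 scale), against 31.2% of all genes tested called higher.

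Some transcripts of the routes known to induce these ligands were also higher, and their part in the ligand levels was not tested. Among all genes tested, 31.2% were called higher and 28.8% lower. Of 10 genes of the interferon gamma route, 7 of 9 tested were higher and 0 lower, and their median was 0.66 on the log2 scale. Gbp2, a guanylate-binding protein gene induced by interferon, rose by 2.39 and Irf8, an interferon-regulated transcription factor gene, by 1.81 on the log2 scale, while Jak1 (0.06) and Jak2 (0.19) did not pass. Of 14 genes of the NF-kappaB route, 9 of 13 tested were higher and 1 lower, with a median of 1.52. Tnf, the tumour necrosis factor gene, had 13 control and 569 model counts (log2 fold change 3.43, SE 0.41, adjusted p = 6.67e-08). Relb, a subunit of NF-kappaB, rose by 2.37 on the log2 scale, whereas the subunit gene Rela (-0.13, adjusted p = 0.149) and the inhibitor gene Nfkbia (-0.12, adjusted p = 0.211) did not pass, and the interleukin 1 receptor gene Il1r1 fell by 0.34. Of 7 proteases known to cut chemokines, 5 were higher, led by Mmp12 (log2 fold change 9.04) and Mmp8 (2.68), and Dpp4, the peptidase that trims CXCL10 and CXCL12, did not pass (0.22, adjusted p = 0.0665).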

How the data were processed

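Per the labels' protocols, polyadenylated liver RNA was selected with oligo(dT) probes, made into double-stranded DNA and sequenced as nanoballs, with no strand-marking step named. The authors deposited raw read counts per Ensembl gene with each gene's exon positions and summed exon length, per the file headers. Per the submitters' processing notes the build was GRCm39. The sources used here do not give the aligner, the counting program or the strand setting. Symbols came from a reference table that matched 51498 of 78298 IDs, which took 99.6% of counts. Groups came from the labels. Members and lists were chosen with earlier results of these data known.

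Groups were compared with edgeR 4.0.16 under R 4.3.3, by its quasi-likelihood F test (robust dispersion, TMM factors, default expression filter by group, design with the group alone, all 24 libraries), with Benjamini-Hochberg adjustment over 17456 genes. Dividing the size of a log2 fold change by the root of its F gave the SE. The fit was tested on simulated data. Log2 CPM used a prior count of 2. Counts were also fitted with DESeq2 1.42.0 and limma 3.58.1. Ratios and relations were computed in Python 3.11.15 with scipy 1.17.1, numpy 2.4.6 and pandas 2.3.3, and plots were drawn with matplotlib 3.10.9. All 9 ligands are described. For the other lists, counts and the 2 called genes of largest change are given, with every receptor of a ligand. Further list members are named as examples chosen after their values were seen. A member of the interferon gamma list is counted there and not reported here by name. Promoters came from RefSeq (GRCm38.p6) and were used for sequence alone, while gene coordinates are those of the deposited table.

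No pair of libraries of a group was alike within sampling noise, with a smallest chi-square per degree of freedom of 17.0 over 168 pairs. Control 1 to 6 and model 1 to 6 share numbers, but nothing in the labels pairs them. Alternatives were other size factors, other tests and filters, a threshold of 0.01, thinned counts, the replicate number as a block, an index of clock genes (Arntl, Npas2 and Clock minus Nr1d1, Dbp and Per3) as a covariate and each library left out. Leaving out model mouse 10 in ratios and relations, the split of the component and the low band of Cxcl13 (below 1 CPM) were chosen after seeing the data. Counting error alone is covered by the levels given for 3 counts.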

Additional observations from a re-analysis of the deposited data

How the results depend on the processing

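Cxcl1, Cxcl9, Cxcl10, Cxcl12, Cxcl14, Cxcl16 and Cx3cl1 kept their direction and their call under all 35 alternatives, and Cxcl2 under the 34 that tested it, since the filter of 1 CPM in 6 libraries removed it. The lowest and highest log2 fold changes were 3.51 and 4.35 for Cxcl1, 1.47 and 2.09 for Cxcl9, -0.93 and -0.55 for Cxcl12, and 2.23 and 2.88 for Cx3cl1, whose call was nearest the threshold with the clock index (adjusted p = 0.0376). Counts over all genes were 9406 higher and 1562 lower with library totals alone, and 3035 lower with the clock index, against 5445 and 5035. Cxcl13 was 0.11 with library totals alone, 1.85 with the clock index, and between -0.66 and 0.0795 without single libraries. The cause was not tested. The Cxcl16 to Cx3cl1 ratio differed by 0.0259 with library totals alone and by -0.0458 to 0.0398 without single libraries. With a prior count of 0.5 this ratio differed by -0.0938. The Cxcl12 with Cxcl14 relation was -0.43 with library totals alone (permutation adjusted p = 0.0719). Without model mouse 10, the relations of Cxcl1 with Cxcl2 (r = 0.44, permutation adjusted p = 0.0752) and of Cxcl9 with Cd3e (r = 0.47, permutation adjusted p = 0.0686) no longer passed. With the replicate number as a block, which uses 6 model mice alone for the group contrast, 2 ligands were lower, as Cxcl13 passed at -1.77 (adjusted p = 0.0161), and 4427 genes were higher and 3378 lower. The deviations of same-numbered libraries correlated between -0.29 and 0.07, and for 1 of 6 numbers the best match was its own. No pairing by number was seen, although 6 numbers cannot show that none exists. Depth limits Cxcl2 in controls, with 2 to 5 counts each, and Cxcl13 in 14 model mice, with 1 to 11 counts each.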

Other observations

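The genes whose levels ordered the 18 model mice most like each ligand were read from 11680 genes of at least 1 CPM, by Spearman rho of log2 CPM and as a description, since many genes follow the leading component. Cxcl9 was nearest to Tgtp1 (rho 0.90) and Gbp6 (0.86), and Cxcl10 to Irf1 (0.74) and Gbp2 (0.74), all 4 known as interferon-induced genes. Cxcl1 was nearest to Traf1 (0.89), a signalling adaptor gene of tumour necrosis factor receptors, and Hbegf (0.84), a growth factor gene, and Cxcl2 to Il2rb (0.81), a cytokine receptor gene, and Mmp13 (0.78), a collagenase gene. Cxcl16 was nearest to Cyba (0.98), a subunit gene of the phagocyte oxidase, and Slamf9 (0.98). Cx3cl1 was nearest to the collagen receptor gene Ddr1 (0.98) and the collagen gene Col6a3 (0.98), and Cxcl14 to Plat (0.97), the tissue plasminogen activator gene, and Cers5 (0.97), a ceramide synthase gene.

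Cxcl12 was nearest to genes that also fell: Serpina1d (0.93), an alpha-1-antitrypsin gene with near-identical copies, at a log2 fold change of -1.15, and Aspa (0.92), at -0.62. Cxcl13 was nearest to Zfp874b (0.81) and to Timd4 (0.81), a marker of resident Kupffer cells. Both values pool the separate bands of Cxcl13 over all 18 model mice. Of the 5 Kupffer cell markers, Cd5l (log2 fold change 3.12), Vsig4 (2.34) and Clec4f (1.32) were higher, Timd4 and Marco did not pass, and the summed level was above every control in 18 of 18 model mice. Timd4 lay between 0.674 and 8.92 CPM over the model mice, with a mean of 2.07 CPM in controls and a log2 fold change of 0.53 that did not pass (adjusted p = 0.40).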
